A study of Mus musculus with 12 samples.

Results

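The 33 genes described here had a higher level in each of the 6 libraries of lymphoid-biased haematopoietic stem cells (Ly-HSCs) than in any of the 6 libraries of myeloid-biased ones (My-HSCs). They were chosen from these values: the smallest FPKM among the Ly-HSC libraries had to exceed the largest among the My-HSC libraries, and the mean over the Ly-HSC libraries had to reach 5 FPKM. FPKM counts fragments per length of transcript and per mapped fragments of the library, which makes levels of different genes comparable. Of 14143 genes in the table, 38 met the rule, which is 0.463% of the 8204 genes whose Ly-HSC mean reached 5 FPKM. Runx3, Cd34, Sox4, Cd27, Cd37 and Flt3 were left out in advance, and 5 of these 6 met the rule, which leaves 33. Because the Ly-HSC and My-HSC values did the choosing, the gap between these subsets is given below as a description with no test. The difference between old and young mice was tested over all genes of the table that passed a filter on low values.

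RNA-seq was done on stem cells of female C57BL6J mice in 4 groups of 3 libraries: Ly-HSCs of old mice aged 18 months, Ly-HSCs of young mice aged 8 to 10 weeks, and My-HSCs of both ages. All cells were sorted as lineage negative, Sca-1 and c-kit positive, CD48 and CD135 negative, and were then divided by their CD150 staining, low in Ly-HSCs and high in My-HSCs. Each library of a group came from a separate group of mice, so the errors below describe the spread between pools and not between single animals. The young mice came from a supplier or a university colony and the old mice from a national ageing colony, per the labels' protocols, so age and colony cannot be told apart.

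Haematopoietic stem cells renew themselves and feed all blood lineages, and clones among them differ in how many lymphoid and myeloid cells they make. CD150, the product of Slamf1, is one of the surface proteins used to enrich clones of either bias. Many signalling proteins that mature lymphocytes use, such as the tyrosine kinases Syk and Btk behind antigen and Fc receptors, are made in many kinds of blood cell. Others among the 33 genes serve the actin skeleton, membrane traffic, gene regulation, mitochondria or antigen presentation.

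Slamf1, which encodes the CD150 used to divide the cells, was lower in every Ly-HSC library. It stood at 1.78, 8.33 and 6.47 FPKM in old and 4.87, 1.39 and 1.70 FPKM in young Ly-HSCs, against 26.4, 35.3 and 31.0 FPKM in old and 34.0, 20.9 and 15.01 FPKM in young My-HSCs. The other sort antigens were less clear at the RNA level. Flt3, which encodes CD135 and was selected against, ran from 2.58 to 22.0 FPKM in Ly-HSCs and 0.571 to 4.01 FPKM in My-HSCs. Cd48, also selected against, ran from 0 to 10.9 FPKM in Ly-HSCs and 0 to 2.44 FPKM in My-HSCs, and Ly6a, which encodes the Sca-1 selected for, from 1.24 to 52.2 FPKM in Ly-HSCs and 5.06 to 38.6 FPKM in My-HSCs. The share of genes listed at 0 was 22.3%, 13.3% and 14.1% in old and 34.1%, 25.0% and 28.4% in young Ly-HSCs, and 18.2%, 12.1% and 12.2% in old and 26.1%, 20.3% and 19.3% in young My-HSCs. Summed levels of marker genes of B cells, T and NK cells, granulocytes, monocytes, erythroid cells, megakaryocytes and dendritic cells overlapped between Ly-HSC and My-HSC libraries for all 7 lists. Monocyte markers, for example, summed to 0.416 to 207.8 FPKM in Ly-HSC and 17.6 to 161.0 FPKM in My-HSC libraries. T and NK cell markers summed to 3.42 to 32.5 FPKM in Ly-HSC and 6.73 to 19.3 FPKM in My-HSC libraries, with Cd3e and Cd3g, but none of the 4 others in the table, below 1 FPKM everywhere. The table held 2 of 10 granulocyte, 5 of 8 erythroid, 6 of 9 T and NK cell and 5 of 7 megakaryocyte markers. It held 8 of 9 B cell, 6 of 7 monocyte and 4 of 5 dendritic cell markers. The granulocyte sum thus rested on 2 genes. A sum can also hide a single gene. Vwf, a megakaryocyte marker, passed limma's test as lower in Ly-HSCs (log2 difference -3.12, adjusted p = 0.00476), as 0.321% of all genes tested did. Of the 5 megakaryocyte markers tested, 1 had a positive log2 difference of Ly-HSCs minus My-HSCs. No marker of the other lists passed. The part of cells of these 7 kinds in the results was not tested. In bulk samples a lower level of a gene can come from fewer cells that express it or from less RNA per cell, and these cannot be told apart.

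The 33 genes differed modestly but without overlap between the subsets. The mean over Ly-HSC libraries was 1.23 times the My-HSC mean for Bdp1 and 2.53 times for Rinl, with a median of 1.68, and 9 genes reached 2-fold. Ly-HSC means ran from 7.88 FPKM for Npc1 to 192 FPKM for Nono, and every one of the 33 genes was above 1 FPKM in all 12 libraries, so none was missing from either subset. The gap itself was narrow in most cases: the smallest Ly-HSC value exceeded the largest My-HSC value by a factor of 1.06 in the median, and by less than 1.1 for 21 genes. Just inside the rule stood Ramp1, with 38.7 against 38.5 FPKM, and Bdp1, with 41.1 against 40.8 FPKM. Just outside it stood Morc2a, with 26.5 against 26.6 FPKM, and Asap1, with 39.7 against 40.0 FPKM. On the level limit, Npc1 was the lowest gene inside, and F8a, with a Ly-HSC mean of 4.32 FPKM, was the highest of 3 genes that met the gap but not the level.

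**Figure D1:**
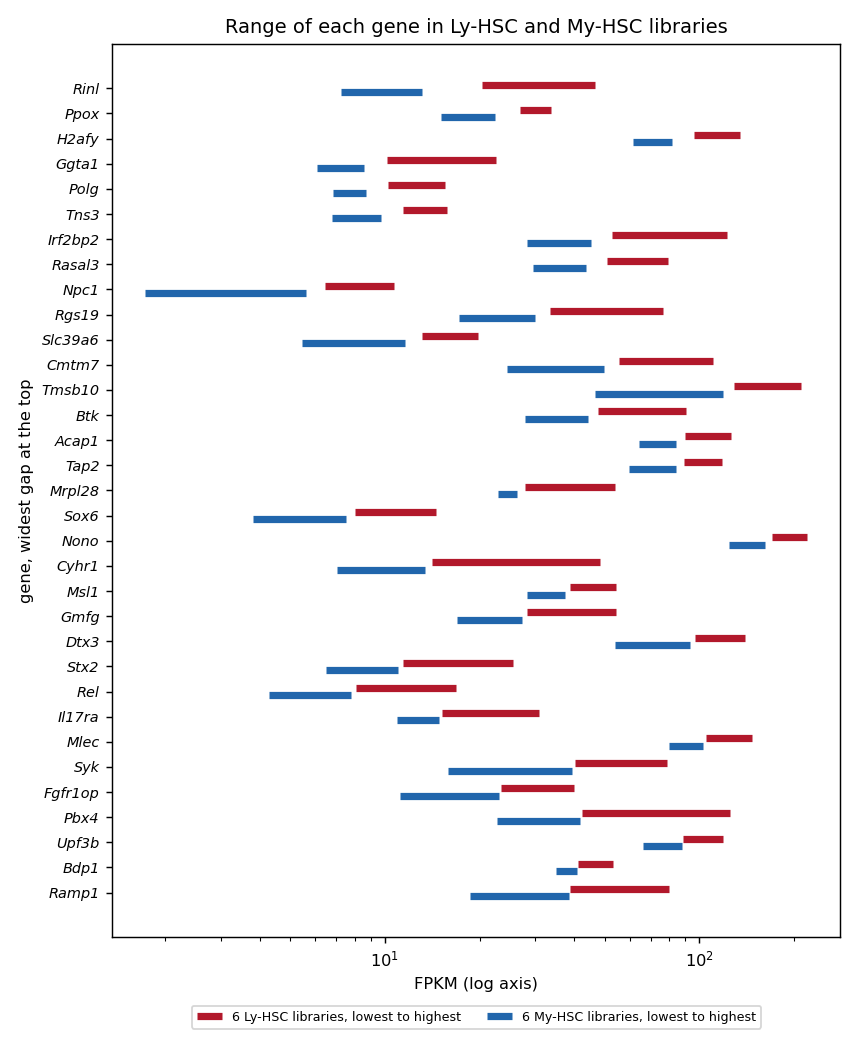
Range of each of the 33 genes over the 6 Ly-HSC libraries (red) and the 6 My-HSC libraries (blue), in FPKM on a log axis, ordered by the ratio of the smallest Ly-HSC to the largest My-HSC value after 1 FPKM is added to each. The bars of a gene do not overlap, by the rule that chose the genes. Without that addition the ratio is 1.55 for Rinl, at the top, and 1.004 for Ramp1, at the bottom.

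Scaling affects genes that sit at such small gaps. The rule was met by 27 of the 33 genes on TPM, by 30 after median-of-ratios scaling and by 24 after quantile normalization, and 21 met it under all 3 scalings. The 12 that lost their place under at least 1 scaling were Acap1, Bdp1, Gmfg, Il17ra, Mrpl28, Pbx4, Ramp1, Rel, Syk, Tap2, Tmsb10 and Upf3b. Under each of the 3 scalings the mean of the Ly-HSC libraries stayed above that of the My-HSC libraries for all 33 genes.

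**Figure D2:**
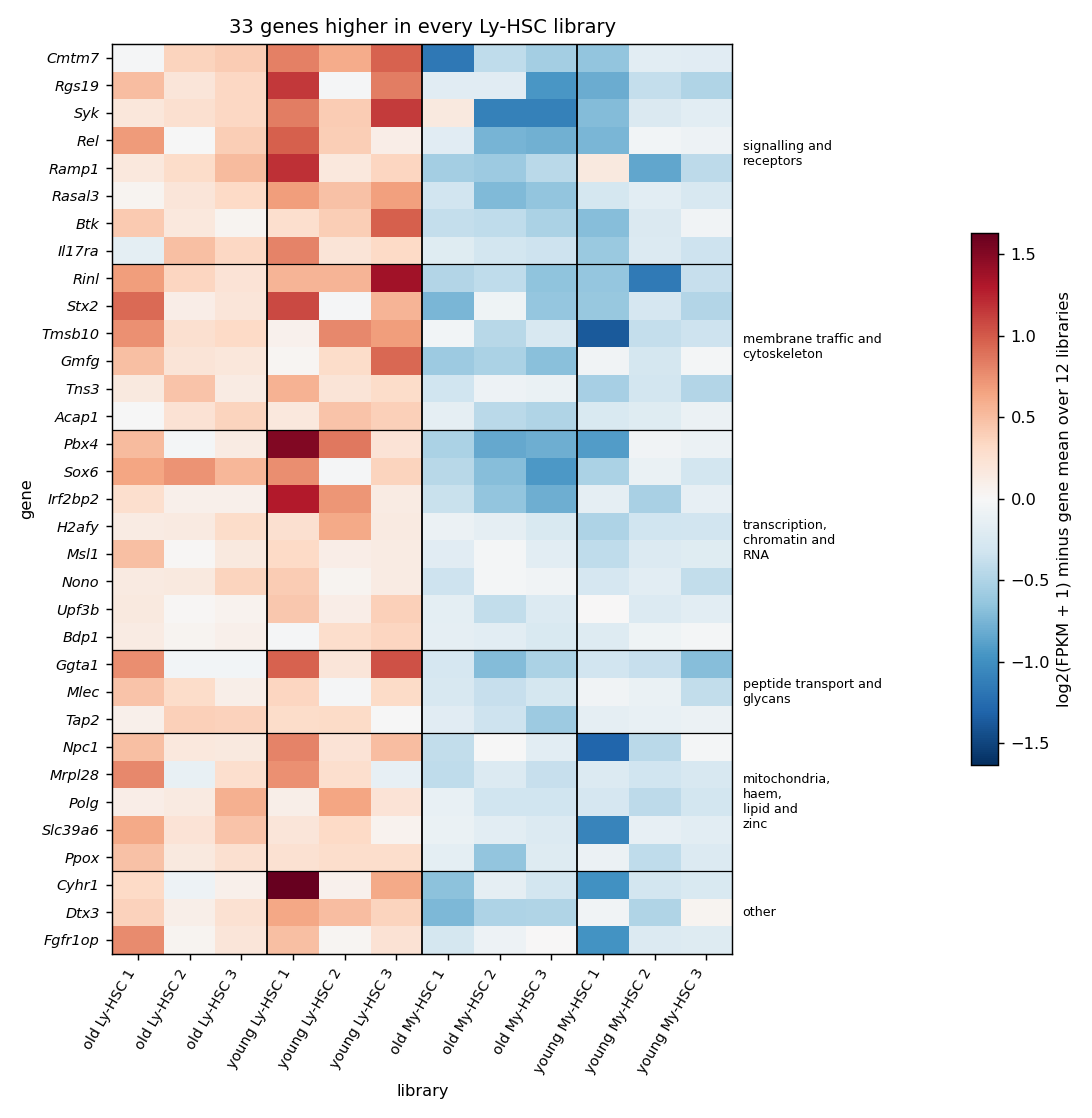
Level of each of the 33 genes (rows, grouped by role) in the 12 libraries (columns), as log2(FPKM + 1) minus the gene's mean over all libraries, with red above and blue below that mean. Most fields of Ly-HSC libraries are red and most of My-HSC libraries blue by the choice of genes. Young Ly-HSC library 1 is the darkest column, with a mean over the 33 genes of 0.63, against 0.18 in old Ly-HSC library 2.

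Signalling proteins and receptors made up 8 of the 33 genes, with levels 1.66 to 2.09 times higher in Ly-HSCs. Syk, the kinase that binds phosphorylated immunoreceptor tails, stood at 40.1, 42.4 and 44.6 FPKM in old and 63.5, 47.1 and 78.7 FPKM in young Ly-HSCs, against 39.4, 15.9 and 15.9 FPKM in old and 21.2, 29.7 and 31.0 FPKM in young My-HSCs. Old My-HSC library 1 lay just under the lowest Ly-HSC library, and the other My-HSC libraries were well below it. That library also had the highest monocyte marker sum of the My-HSC libraries, at 161.0 FPKM. Among Ly-HSC libraries, old Ly-HSC library 1 had the highest sum, at 207.8 FPKM, and the lowest Syk level. Young Ly-HSC library 1 had the lowest sum, at 0.416 FPKM, with Syk at 63.5 FPKM. The part of such cells in the Syk levels was not tested. Btk, the kinase that acts downstream of Syk in B cells and is mutated in X-linked agammaglobulinaemia, stood at 62.2, 51.8 and 47.4 FPKM in old and 55.4, 60.7 and 90.9 FPKM in young Ly-HSCs, against 34.9, 34.3 and 31.9 FPKM in old and 27.9, 38.9 and 44.2 FPKM in young My-HSCs. Young Ly-HSC library 3 was its highest value, and the other Ly-HSC libraries lay close to each other.

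Rasal3, a Ras GTPase-activating protein of blood cells, stood at 50.7, 56.5 and 61.9 FPKM in old and 79.4, 69.0 and 79.0 FPKM in young Ly-HSCs, against 39.5, 29.6 and 31.3 FPKM in old and 40.2, 43.6 and 40.9 FPKM in young My-HSCs. Cmtm7, a MARVEL-domain membrane protein that in B cells links the antigen receptor to its signalling, stood at 55.6, 72.8 and 75.4 FPKM in old and 101, 86.5 and 110.4 FPKM in young Ly-HSCs, against 24.5, 42.0 and 38.2 FPKM in old and 35.7, 49.7 and 49.6 FPKM in young My-HSCs. For both genes every young Ly-HSC library lay above every old one. Rgs19, which speeds GTP hydrolysis by inhibitory G proteins, ranged over 33.6 to 76.7 FPKM in Ly-HSCs and 17.2 to 29.9 FPKM in My-HSCs. Il17ra, a receptor chain for interleukin 17, ranged over 15.2 to 30.8 FPKM in Ly-HSCs and 10.9 to 14.8 FPKM in My-HSCs, and Rel, the NF-kB subunit c-Rel needed for lymphocyte activation, over 8.07 to 16.8 FPKM in Ly-HSCs and 4.28 to 7.79 FPKM in My-HSCs. In both, the highest library was young Ly-HSC library 1.

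Ramp1 is an accessory chain that turns the receptor Calcrl into a receptor for the neuropeptide CGRP, while Ramp2 turns the same Calcrl into a receptor for adrenomedullin. Ramp1 stood at 38.7, 42.5 and 49.5 FPKM in old and 79.9, 38.8 and 44.1 FPKM in young Ly-HSCs, against 23.0, 22.6 and 25.2 FPKM in old and 38.5, 18.7 and 25.4 FPKM in young My-HSCs. Young Ly-HSC library 1 was far above the rest, and young My-HSC library 1 came just short of the lowest Ly-HSC library. Calcrl, which is not one of the 33 genes, went the other way, at 34.6, 28.6 and 24.8 FPKM in old and 29.0, 29.5 and 18.8 FPKM in young Ly-HSCs, against 36.5, 48.0 and 48.3 FPKM in old and 36.9, 38.5 and 35.2 FPKM in young My-HSCs. Ramp2 was listed at 0, 1.93 and 0.248 FPKM in old and 0.062, 0.031 and 0 FPKM in young Ly-HSCs, against 7.77, 15.2 and 18.3 FPKM in old and 13.0, 0 and 4.87 FPKM in young My-HSCs. Calcrl levels did not overlap between the subsets, whereas Ramp2 overlapped through 1 young My-HSC library listed at 0. In limma's test over all genes neither difference passed the threshold of an adjusted p under 0.05, with a log2 difference of Ly-HSCs minus My-HSCs of -0.55 ± 0.17 (SE, adjusted p = 0.194) for Calcrl and -2.63 ± 0.57 (SE, adjusted p = 0.0625) for Ramp2.

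**Figure D3:**
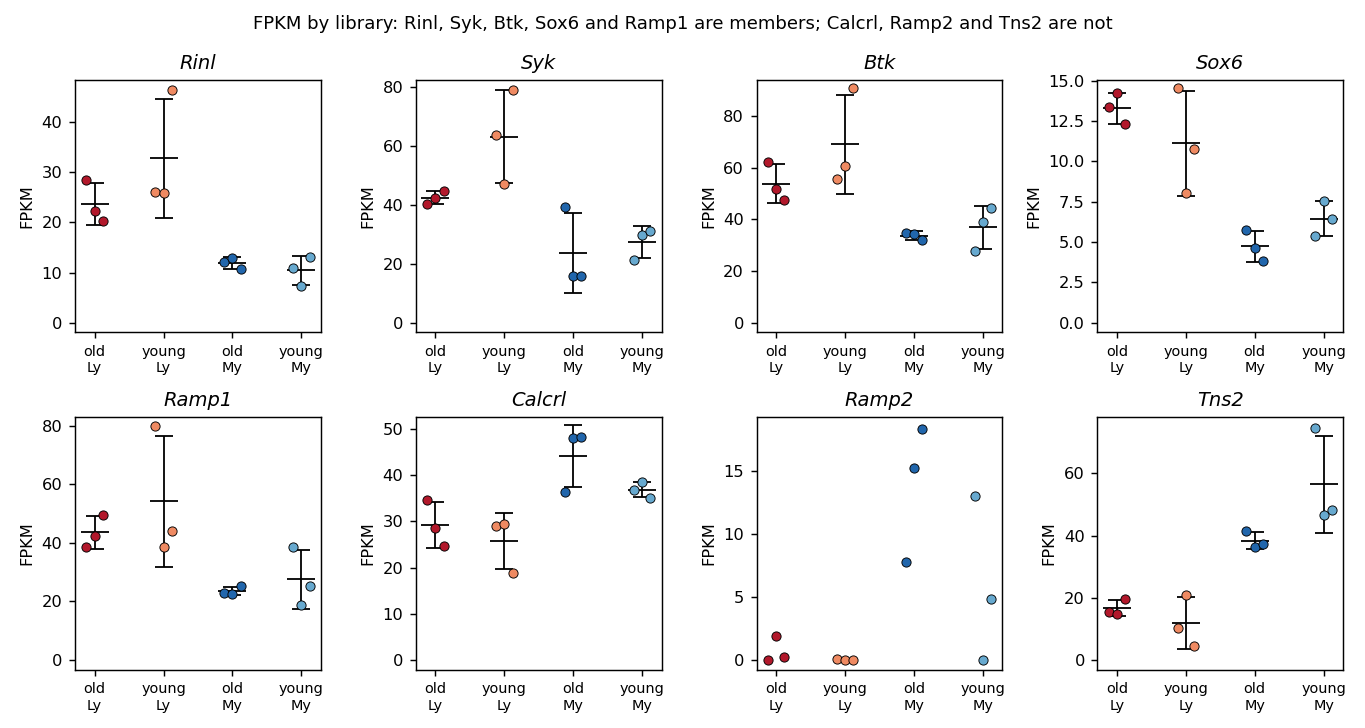
FPKM of 5 of the 33 genes (Rinl, Syk, Btk, Sox6, Ramp1) and of 3 related genes outside the set (Calcrl, Ramp2, Tns2) in each library, with old Ly-HSCs, young Ly-HSCs, old My-HSCs and young My-HSCs from left to right. Points are libraries, and lines give the mean and SD of 3 libraries, which are left out for Ramp2 because it is listed at 0 in some. Calcrl and Tns2 are lower in every Ly-HSC library than in any My-HSC library.

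Membrane traffic and the cytoskeleton accounted for 6 genes, with levels 1.46 to 2.53 times higher in Ly-HSCs. Rinl, an exchange factor for Rab5-family GTPases of early endosomes, had the widest gap and the highest ratio of all 33 genes. It stood at 28.5, 22.3 and 20.4 FPKM in old and 25.97, 25.9 and 46.5 FPKM in young Ly-HSCs, against 12.2, 12.8 and 10.6 FPKM in old and 10.9, 7.26 and 13.1 FPKM in young My-HSCs. Young Ly-HSC library 3 was the highest, and the highest My-HSC library was still well under the lowest Ly-HSC one. Gmfg, which removes branches from Arp2/3 actin networks in blood cells, stood at 39.5, 32.3 and 31.6 FPKM in old and 28.4, 34.4 and 54.2 FPKM in young Ly-HSCs, against 18.2, 19.2 and 16.9 FPKM in old and 26.7, 22.6 and 27.3 FPKM in young My-HSCs. Gmfg also followed Rinl within groups: with group means removed, their Spearman correlation over the 12 libraries was 0.97, the highest of 528 pairs of the 33 genes, whose median was 0.11. The libraries are shared between all pairs, and this value describes them without a test.

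Rinl (chromosome 7, 28788969 to 28798963, plus strand, GRCm38) and Gmfg (chromosome 7, 28437447 to 28448233, plus strand) were the only pair of the 33 genes within 1000000 bp, at 340736 bp from each other, while the 33 genes lay on 14 chromosomes. The Gmfg gene lies wholly inside Samd4b, which runs on the opposite strand, and no source used here says whether fragments were assigned by strand. Promoter sequences of 300 bases (250 before to 50 after the first listed start) were found in RefSeq, build GRCm38.p6, for 24 of the 33 genes. Those of Rinl and Gmfg are printed because the 2 genes are neighbours with like profiles, and that of Rel because it, like Stx2, held the letters of both blood transcription factor motifs described next. Capitals mark GGAAGT or its reverse complement ACTTCC, letters of an ETS-family motif, and TGTGGT or its reverse complement ACCACA, letters of a RUNX motif. The marked letters do not overlap each other in these sequences.
Rinl, chr7:28788719-28789018, plus strand: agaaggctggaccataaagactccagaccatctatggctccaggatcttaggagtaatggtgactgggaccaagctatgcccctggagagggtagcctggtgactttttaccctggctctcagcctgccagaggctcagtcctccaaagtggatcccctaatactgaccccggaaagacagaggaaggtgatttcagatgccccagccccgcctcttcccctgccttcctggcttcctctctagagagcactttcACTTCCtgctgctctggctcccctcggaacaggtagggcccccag
Gmfg, chr7:28437219-28437518, plus strand: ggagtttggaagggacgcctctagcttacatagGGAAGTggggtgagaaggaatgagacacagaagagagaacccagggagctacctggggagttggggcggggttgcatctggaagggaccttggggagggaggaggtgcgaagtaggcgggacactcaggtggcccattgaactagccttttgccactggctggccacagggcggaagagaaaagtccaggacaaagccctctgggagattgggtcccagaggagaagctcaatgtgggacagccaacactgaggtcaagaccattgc
Rel, chr11:23770920-23771219, minus strand: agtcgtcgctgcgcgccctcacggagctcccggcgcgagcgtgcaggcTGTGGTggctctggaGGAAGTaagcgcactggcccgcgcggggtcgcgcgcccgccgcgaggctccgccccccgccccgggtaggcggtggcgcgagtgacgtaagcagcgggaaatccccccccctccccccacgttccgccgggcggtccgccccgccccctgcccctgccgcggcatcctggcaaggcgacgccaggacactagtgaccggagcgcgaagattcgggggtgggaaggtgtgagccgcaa

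Counted from the listed start, the ETS letters lay at position 6 in Rinl, at -217 in Gmfg and at -187 in Rel, which also held the RUNX letters at -202. Searched on both strands, GGAAGT was in 9 of the 24 promoters (37.5%), against 29.2% of 8555 promoters of genes in the table. TGTGGT was in 3 of the 24 (12.5%, in Rel, Stx2 and Tmsb10), against 12.4% of the 8555. CACGTG, an E-box, was in 4.17% against 10.4%, and AACNGT, letters of a MYB motif, in 8.33% against 20.6%. These are matches of letters, not sites of binding, and with 24 promoters a single gene makes up 4.17%.

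Stx2, a SNARE protein for membrane fusion, ranged over 11.4 to 25.5 FPKM in Ly-HSCs and 6.48 to 11.02 FPKM in My-HSCs. Acap1, a GTPase-activating protein for Arf6 in recycling endosomes, ranged over 90.2 to 126 FPKM in Ly-HSCs and 64.1 to 84.4 FPKM in My-HSCs. Tmsb10, a thymosin that binds actin monomers, was one of the most abundant of the 33 genes, at 206, 147 and 153 FPKM in old and 129, 210.4 and 198 FPKM in young Ly-HSCs, against 119, 89.1 and 102 FPKM in old and 46.6, 93.2 and 96.4 FPKM in young My-HSCs. Young My-HSC library 1 was far below the other My-HSC libraries.

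Tns3, a tensin that links integrins to actin at focal adhesions, stood at 11.6, 14.6 and 11.4 FPKM in old and 15.8, 12.0 and 12.9 FPKM in young Ly-HSCs, against 8.00, 9.71 and 9.52 FPKM in old and 6.78, 8.15 and 7.12 FPKM in young My-HSCs. Its relative Tns2 was lower in every Ly-HSC library, at 15.5, 14.7 and 19.5 FPKM in old and 10.3, 20.8 and 4.48 FPKM in young Ly-HSCs, against 41.4, 36.4 and 37.4 FPKM in old and 74.5, 46.5 and 48.2 FPKM in young My-HSCs. The log2 difference of Ly-HSCs minus My-HSCs was -1.76 ± 0.28 (SE), with an adjusted p of 0.0170 in limma's test over all genes, where 0.321% passed as lower and 0.0917% as higher in Ly-HSCs. The call was lost with a replicate block by age and number (adjusted p = 0.0687) and without old Ly-HSC library 1 or 2 or old My-HSC library 2 or 3 (0.0571 to 0.0655). Tns2 and Tns3 thus stood on opposite sides of the CD150 division, with Tns3 there by the rule.

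Genes for transcription, chromatin and RNA numbered 8, with levels 1.23 to 2.22 times higher in Ly-HSCs. Sox6, an HMG-box factor best known from erythroid and cartilage cells, stood at 13.4, 14.2 and 12.3 FPKM in old and 14.5, 8.02 and 10.8 FPKM in young Ly-HSCs, against 5.73, 4.66 and 3.81 FPKM in old and 5.41, 7.53 and 6.44 FPKM in young My-HSCs. Its values in old Ly-HSCs were close together and those in young Ly-HSCs spread more widely. The ratio of Ly-HSC to My-HSC means was 2.81 in old and 1.72 in young mice, the highest of all 33 genes in old mice. Pbx4, a TALE-class homeobox protein, stood at 62.3, 42.2 and 47.8 FPKM in old and 125, 79.3 and 50.6 FPKM in young Ly-HSCs, against 30.1, 23.9 and 24.5 FPKM in old and 22.7, 41.8 and 40.3 FPKM in young My-HSCs. Its highest value was in young Ly-HSC library 1, and its ranges nearly touched, at 42.2 FPKM in Ly-HSCs and 41.8 FPKM in My-HSCs.

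Irf2bp2, a corepressor that binds IRF2, stood at 60.1, 52.6 and 52.6 FPKM in old and 123, 82.0 and 54.7 FPKM in young Ly-HSCs, against 38.4, 31.5 and 28.2 FPKM in old and 44.6, 34.2 and 45.2 FPKM in young My-HSCs. Young Ly-HSC libraries 1 and 2 were well above the other Ly-HSC libraries. H2afy, which encodes the histone variant macroH2A1, stood at 96.1, 96.9 and 108 FPKM in old and 105, 135 and 97.1 FPKM in young Ly-HSCs, against 82.0, 78.5 and 73.7 FPKM in old and 61.4, 69.3 and 70.2 FPKM in young My-HSCs. Its Ly-HSC libraries began well above the top of its My-HSC range. Nono, an RNA-binding protein of nuclear paraspeckles, ranged over 169.8 to 221 FPKM in Ly-HSCs and 125 to 162 FPKM in My-HSCs. Msl1, a scaffold of a histone H4 acetyltransferase complex, ranged over 38.8 to 54.2 FPKM in Ly-HSCs and 28.3 to 37.3 FPKM in My-HSCs. Upf3b, of nonsense-mediated mRNA decay, ranged over 88.8 to 119 FPKM in Ly-HSCs and 66.0 to 87.9 FPKM in My-HSCs, and Bdp1, a subunit of the RNA polymerase III factor TFIIIB, over 41.1 to 53.0 FPKM in Ly-HSCs and 34.9 to 40.8 FPKM in My-HSCs. These 4 genes had the lowest ratios of the group.

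The set held 3 genes of peptide transport and glycans. Tap2, which with Tap1 carries peptides into the endoplasmic reticulum for class I molecules, stood at 95.7, 118 and 118 FPKM in old and 112, 113 and 89.7 FPKM in young Ly-HSCs, against 79.4, 71.5 and 59.7 FPKM in old and 81.5, 83.1 and 84.5 FPKM in young My-HSCs. Tap1, its partner subunit, had a log2 difference of 0.0003 between Ly-HSCs and My-HSCs (limma adjusted p = 1.0), and was not among the 33 genes. Ggta1, the galactosyltransferase that makes the alpha-Gal epitope in mice, stood at 18.5, 10.1 and 10.1 FPKM in old and 21.3, 12.3 and 22.6 FPKM in young Ly-HSCs, against 8.56, 6.07 and 7.07 FPKM in old and 8.29, 7.89 and 6.15 FPKM in young My-HSCs. Both age groups of Ly-HSCs held values of Ggta1 close to the My-HSC range as well as values far above it. Mlec, a lectin of the endoplasmic reticulum that binds glucosylated glycans, ranged over 105 to 147 FPKM in Ly-HSCs and 80.2 to 103 FPKM in My-HSCs.

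Mitochondria, haem, lipid and zinc took 5 genes. Ppox, the oxidase that makes protoporphyrin in haem synthesis, had the second widest gap, at 33.8, 26.97 and 29.0 FPKM in old and 28.8, 29.6 and 29.5 FPKM in young Ly-HSCs, against 21.5, 15.1 and 20.7 FPKM in old and 22.5, 17.8 and 20.5 FPKM in young My-HSCs. The young Ly-HSC libraries lay within 1 FPKM of each other. Polg, the mitochondrial DNA polymerase, stood at 10.3, 10.7 and 14.7 FPKM in old and 10.2, 15.5 and 11.3 FPKM in young Ly-HSCs, against 8.67, 7.44 and 7.47 FPKM in old and 7.75, 6.85 and 7.60 FPKM in young My-HSCs. Mrpl28, of the large mitochondrial ribosomal subunit, ranged over 27.9 to 53.8 FPKM in Ly-HSCs and 22.9 to 26.3 FPKM in My-HSCs. Npc1, which moves cholesterol out of lysosomes, ranged over 6.42 to 10.7 FPKM in Ly-HSCs and 1.73 to 5.63 FPKM in My-HSCs, and Slc39a6, a zinc transporter, over 13.1 to 19.8 FPKM in Ly-HSCs and 5.45 to 11.6 FPKM in My-HSCs. For both Npc1 and Slc39a6 the lowest value was in young My-HSC library 1. Ppox, Polg, Npc1 and Slc39a6 each overlap a protein-coding gene on the opposite strand, as Cyhr1 does, so fragments of these pairs may be mixed if strand was not used, and Msl1 overlaps Casc3 on its own strand.

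The remaining 3 genes were Dtx3, a ubiquitin ligase of the deltex family, Fgfr1op, a centrosomal protein, and Cyhr1. Dtx3 ranged over 96.5 to 140.1 FPKM in Ly-HSCs and 53.9 to 93.1 FPKM in My-HSCs. Fgfr1op ranged over 23.4 to 39.8 FPKM in Ly-HSCs and 11.2 to 23.0 FPKM in My-HSCs. Cyhr1 stood at 19.0, 14.1 and 15.9 FPKM in old and 48.4, 15.8 and 23.6 FPKM in young Ly-HSCs, against 9.05, 13.4 and 12.0 FPKM in old and 7.03, 11.9 and 12.4 FPKM in young My-HSCs. A single library, young Ly-HSC library 1, was more than 2-fold above every other value of Cyhr1.

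Relatives and binding partners were also read. Of 68 such genes listed after the 33 were known, 57 passed the filter on low values, and 20 of these (35.1%) had a positive log2 difference of Ly-HSCs minus My-HSCs, with a median of -0.15, beside 41.9% and a median of -0.08 over all 10900 genes tested. None had every Ly-HSC library above every My-HSC library, and at the 0.463% given above none of 57 is near that background. Calcrl and Tns2 had the reverse, which 0.764% of genes with a My-HSC mean of at least 5 FPKM did.

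The rule set no condition on age, but it used the lowest and highest libraries of both ages. A large difference with age makes it harder for a gene to meet the rule, so the counts of genes called are a description of the 33 and not an independent test of them. Old and young mice were compared with limma on log2(FPKM + 1) over the 10900 genes that reached 1 FPKM in at least 3 libraries, all 33 genes among them, with Benjamini-Hochberg adjustment over all of these. None of the 33 genes passed an adjusted p under 0.05 in old against young Ly-HSCs, where 0.349% of all genes tested did, and 3 (9.09%) had an unadjusted p under 0.05, beside 13.3% of all genes. None passed in old against young My-HSCs, where 0.211% of all genes did, and 1 (3.03%) had an unadjusted p under 0.05, beside 7.21%. None passed for the mean of both subsets, where 0.844% did, and 5 (15.2%) had an unadjusted p under 0.05, beside 14.7%. Ly-HSC and My-HSC libraries of the same number deviated together in old mice (0.210 to 0.256) and hardly in young mice (0.0023 to 0.048). The fit took them as independent, so the errors of this mean may be too small, and no block by age and number was run for it. The age effect in Ly-HSCs minus that in My-HSCs passed for none of the 10900 genes (0%), with 616 of them (5.65%) at an unadjusted p under 0.05 and none of the 33 among these. Without the filter on low values it passed for 6 of 13829 genes, none of them among the 33.

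The genes nearest to the threshold were lower in old mice. Rasal3 had a log2 difference of old minus young of -0.42 ± 0.18 in Ly-HSCs (SE, limma adjusted p = 0.341) and of -0.37 ± 0.13 for the mean of both subsets (SE, limma adjusted p = 0.203), the lowest adjusted p of the 33 genes in both contrasts. Cmtm7 had -0.55 ± 0.23 (SE) in Ly-HSCs, with a 95% interval of -1.05 to -0.04 and a limma adjusted p of 0.343. Irf2bp2 had -0.57 ± 0.26 (SE, limma adjusted p = 0.374) there. In My-HSCs Dtx3 came nearest, at -0.41 ± 0.18 (SE, limma adjusted p = 0.654), and Gmfg had -0.47 ± 0.25 (SE, limma adjusted p = 0.778). None of these differences is larger than the replicate spread allows after adjustment.

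The 95% intervals show what the design could not see. In Ly-HSCs the half-width ran from 0.33 for Nono to 0.95 for Npc1 on the log2 scale, and the intervals of the 33 genes together spanned -1.51 (Cyhr1) to 1.06 (Sox6). In My-HSCs they spanned -1.18 (Sox6) to 1.34 (Npc1). A 2-fold change with age is thus outside the interval of some genes and inside that of others.

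**Figure D4:**
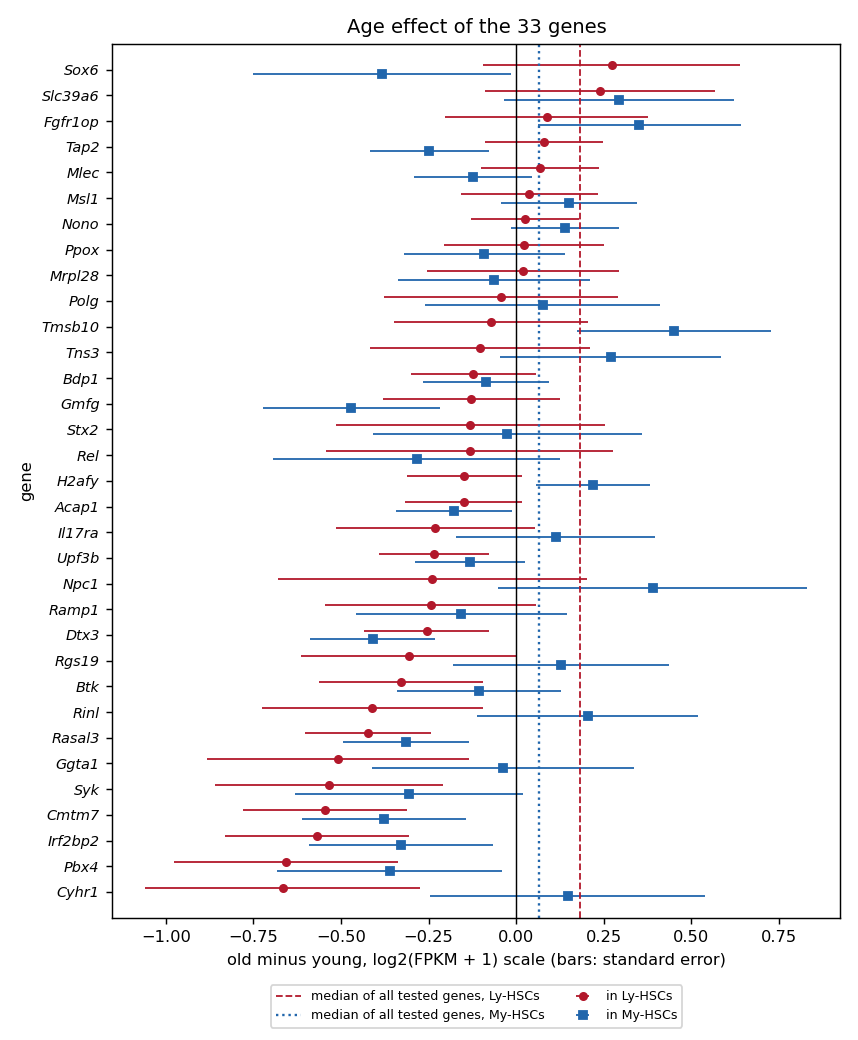
Difference of old minus young mice for each of the 33 genes on the log2(FPKM + 1) scale, in Ly-HSCs (red circles) and My-HSCs (blue squares), with the standard error from limma as bars, ordered by the Ly-HSC value. The dashed and dotted lines mark the medians of all 10900 genes tested, 0.18 in Ly-HSCs and 0.07 in My-HSCs. Of the 33 genes, 9 lie above 0 in Ly-HSCs and 13 in My-HSCs.

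By direction alone, 9 of the 33 genes (27.3%) had a higher mean in old than in young Ly-HSCs, with a median log2 difference of -0.15, beside 62.4% and a median of 0.18 over all genes tested. In My-HSCs 13 of the 33 (39.4%) did, with a median of -0.09, beside 55.8% and 0.07. All 8 signalling genes and all 6 genes of traffic and cytoskeleton had lower means in old Ly-HSCs, and 3 of 8 genes of transcription, chromatin and RNA had higher ones. Both groups of genes stayed wholly lower under the 3 scalings, but not without single libraries. Without young Ly-HSC library 1 the difference was positive for 2 of 8 signalling genes and 2 of 6 genes of traffic and cytoskeleton, and without old Ly-HSC library 2 for 1 of 8 and 2 of 6. Without young Ly-HSC library 2 it was positive for 1 of 6 genes of traffic and cytoskeleton, and without young Ly-HSC library 3 for 2 of 6. The 64 genes with the opposite pattern, every My-HSC library above every Ly-HSC library and a My-HSC mean of at least 5 FPKM, had higher means in old Ly-HSCs for 56 (87.5%), with a median of 0.50, and in old My-HSCs for 34 (53.1%). The choice of either set used the lowest and highest libraries of both ages, so these directions are a description.

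How many of the 33 genes had a higher mean in old Ly-HSCs moved with the libraries and the scaling, from 4 to 13. Their median log2 difference of old minus young stayed negative under every alternative run for this contrast. It ran from -0.23 after median-of-ratios scaling to -0.14 when young Ly-HSC library 3 was dropped. The mean log2 deviation of the 33 genes was 0.38, 0.18 and 0.26 in old and 0.63, 0.32 and 0.45 in young Ly-HSC libraries, and it was highest in the library with the largest share of genes listed at 0, young Ly-HSC library 1, and lowest in the one with the smallest share, old Ly-HSC library 2. In My-HSCs the library with most genes at 0, young My-HSC library 1, had the lowest deviation, at -0.49. Young Ly-HSC library 1 was the highest Ly-HSC library for 15 of the 33 genes. Without it 13 of the 33 genes had a higher mean in old Ly-HSCs, beside 57.8% of all genes. Without old Ly-HSC library 1 there were 5, beside 65.1%, and without old Ly-HSC library 2 there were 13, beside 60.3%. After median-of-ratios scaling 4 did, beside 57.9%. Quantile normalization brought the median of all genes in Ly-HSCs to -0.01, against 0.18 on FPKM, and left 9 of the 33 higher, with a median of -0.17. The part of these zeros in the age differences was not tested.

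Old and young libraries of a subset did not overlap for some of the 33 genes. No gene of the 33 had every old above every young Ly-HSC library, beside 11.5% of all genes tested, and 3 (Cmtm7, Rasal3 and Syk) had every old below every young library, beside 4.50%. In My-HSCs, H2afy and Msl1 had every old above every young library, beside 11.3%, and Gmfg, Rasal3 and Tap2 had every old below every young library, beside 7.80%. Rasal3 was alone in doing so in both subsets.

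The ratio of Ly-HSC to My-HSC means was larger in young mice for 23 of the 33 genes and larger in old mice for 10. Its medians were 1.60 in old and 1.82 in young mice. On the log2(FPKM + 1) scale, the age effect in Ly-HSCs minus that in My-HSCs was positive for 9 of the 33 (median -0.11). Over all genes tested it was positive for 57.2% (median 0.12). The rule used libraries of both ages, so these counts are a description. Rinl had ratios of 2.00 in old and 3.15 in young mice, and Cyhr1 had 1.42 in old and 2.80 in young mice. For Sox6, Rel, Gmfg, Tap2 and 6 others the ratio was larger in old mice. Tested as the age effect in Ly-HSCs minus that in My-HSCs, H2afy came nearest to the threshold, at -0.37 ± 0.23 (SE, limma adjusted p = 0.906), with Cyhr1 at -0.81 ± 0.55 (SE, limma adjusted p = 0.917), Rinl at -0.61 ± 0.45 (SE, limma adjusted p = 0.924) and Sox6 at 0.66 ± 0.52 (SE, limma adjusted p = 0.947). None of these differences between the subsets' age effects passed.

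Since the rule used both ages at once, it was also applied to 1 age and read in the other, with the same 6 genes left out. The rule on old mice alone found 733 genes, and in young mice 409 of them (55.8%) had a higher mean in Ly-HSCs, beside 42.8% of 8309 genes. In 80 of them (10.9%) every young Ly-HSC library was above every young My-HSC library, beside 4.92%, and in 35 (4.77%) every one was below, beside 7.97%. The rule on young mice alone found 450 genes, and in old mice 297 of them (66.0%) had a higher mean in Ly-HSCs, beside 51.2% of 7851 genes. In 82 of these (18.2%) every old Ly-HSC library was above every old My-HSC library, beside 8.65%, and in 10 (2.22%) every one was below, beside 7.73%. Most genes separated in 3 against 3 libraries of 1 age were thus not separated in the other.

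Within groups the 33 genes did not vary as 1 block. With group means removed, Spearman correlations over the 12 libraries ran from -0.82 between Bdp1 and Ramp1 to 0.97 between Rinl and Gmfg. Cyhr1 and Npc1 had 0.96, and Pbx4 and Rel 0.94. With group means kept, the genes of the table most like Rinl over the 12 libraries were Npc1 (0.94), Btk (0.91), Cyhr1 (0.90), Zfp808 (0.90) and Gmfg (0.88), all but Zfp808 members of the set. Zfp808, a zinc finger gene, had means of 15.6 FPKM in Ly-HSCs and 7.31 FPKM in My-HSCs.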

How the data were processed

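The authors deposited 1 FPKM value for each gene in each library. STAR, DESeq2, bcl2fastq 2.17 and the mouse build GRCm38 (mm10) appear in the submitters' processing notes with no step attached, and per the labels' protocols the library kit kept strand. No source used here gives the annotation, the use of strand in counting or the treatment of reads that map to several places. Read totals are unknown, since FPKM removes them and too few low values were shared to recover them, so precision rests on the 3 libraries per group. FPKM summed to 211455 to 228391 per library.

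Values were tested as log2(FPKM + 1) for genes with at least 1 FPKM in 3 libraries. With limma 3.58.1 (R 4.3.3), a group-means model was fitted over 12 libraries with a trended prior, 8 residual and 5.11 prior degrees of freedom, two-sided tests and Benjamini-Hochberg adjustment over 10900 genes. Log2 differences are on that scale and understate the change of low genes. Gene coordinates are from GENCODE M21. The named genes are the 33 that the rule gives, plus relatives and the genes most like Rinl, the gene with the widest gap. The members, roles, relatives and gene lists were chosen with earlier results of these data known. Alternatives were other scalings, pseudocount and filter settings, the limits of the rule, a replicate block, and leaving out each library.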

Additional observations from a re-analysis of the deposited data

How the results depend on the processing

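The number of genes found by the rule depended on its strictness and on single libraries. Asking for a gap of at least 1.5-fold left 1 gene, Rinl. Leaving out 1 library gave 36 to 65 genes, among them the 33 each time, since fewer libraries can only widen the gap. The count grew by more than 1.5 times without young Ly-HSC library 1 (65), old Ly-HSC library 1, old Ly-HSC library 3 or old My-HSC library 1 (54 each), young Ly-HSC library 2 (52), and young My-HSC libraries 1 or 2 (50 each). Other limits and scalings gave 28 to 36 genes. For the age tests, none of the 33 genes was called by limma under any alternative run in any of the 4 contrasts. The number of all genes called moved widely when 1 library was left out: in Ly-HSCs it was 38 with all libraries, 7 without old Ly-HSC library 2 and 223 without young Ly-HSC library 2, and in My-HSCs it was 23 with all libraries, 0 without old My-HSC library 2 or 3, and 36 without young Ly-HSC library 1. For the mean of both subsets it was 92 with all libraries, 42 without old My-HSC library 2 and 197 without young Ly-HSC library 2. For Ly-HSCs minus My-HSCs it was 45 with all libraries, 14 without old My-HSC library 3 and 111 without young Ly-HSC library 2.

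Replicate numbers did not pair the samples for the age comparisons, since same-numbered old and young libraries deviated from their group means with correlations of -0.039 to 0.0098. With the replicate block by number, 0 of the 33 genes were called in old against young mice. Old Ly-HSC and My-HSC libraries of the same number did deviate together, at 0.256, 0.233 and 0.210, and the young ones at 0.048, 0.0026 and 0.0023. With the replicate block by age and number, 0 genes were called for the difference of age effects, and for Ly-HSCs minus My-HSCs, an alternative chosen after seeing the data, 17 were called in place of 45. The block by number left 32. Without read totals no counting error can be given.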

Other observations

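Gene lists that hold none of the 33 genes were read by the mean log2 difference of Ly-HSCs minus My-HSCs, beside a median of -0.08 and 41.9% positive over all genes tested. Of 20 tested genes of stem cell identity, 2 were positive, the median was -0.71, and 5 passed limma's test as lower in Ly-HSCs: Fgd5, Hoxb5, Mllt3, Slamf1 and Sult1a1. With a replicate block by age and number, Fgd5, Slamf1 and Sult1a1 still passed (adjusted p = 0.0446, 0.0362 and 0.0362), and Hoxb5 (adjusted p = 0.0895) and Mllt3 (adjusted p = 0.121) did not. With 1 library left out in turn, Fgd5 and Slamf1 passed in 12 of 12 fits, Mllt3 in 5, Sult1a1 in 4 and Hoxb5 in 2. Slamf1 encodes the antigen used for the sort, so its difference is part of the design.

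Of 18 megakaryocyte priming genes, 5 were positive with a median of -0.49. Clu, Slamf1 and Vwf passed as lower, each in 12 of 12 fits without a library and with the block (adjusted p = 0.0362, 0.0362 and 0.0384). Slamf1 is the gene already counted in the stem cell identity list, and its difference is part of the sort. Multipotent progenitor genes were positive for 9 of 12 (median 0.48), lymphoid priming genes for 12 of 15 (median 0.28) and myeloid priming genes for 7 of 14 (median 0.01), and 0 of these passed. Cell cycle genes were positive for 14 of 28. In old mice 27 of 28 were positive (median 0.63), beside 48.0% of all genes tested (median -0.02). In young mice 6 of 28 were positive (median -0.49), beside 40.8% (median -0.13), and 0 passed at either age. Old minus young was positive for 27 of 28 in Ly-HSCs (median 1.17), beside 62.4% of all genes. In My-HSCs it was positive for 16 of 28 (median 0.16), beside 55.8%. Genes listed at 0 made up 34.1%, 25.0% and 28.4% in young and 22.3%, 13.3% and 14.1% in old Ly-HSC libraries. In My-HSC libraries they made up 26.1%, 20.3% and 19.3% in young and 18.2%, 12.1% and 12.2% in old mice. Their part in these directions was not tested. The difference between the ages was not tested for the list.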
